A study of Mus musculus with 9 samples.

Results

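Apoe, Clu, App, Cst3 and Lrp1 are 5 of the 18634 genes counted here, and they were taken by name as a set of astrocyte ligands and amyloid-linked genes. Their levels were followed in each of the 9 single-cell libraries and in each cell type of the brainstem NS library, for which the authors' type names could be matched to cells. The libraries came from brainstem, cortex and hypothalamus of male wild-type C57BL/6 mice (C57BL/6 J in the methods), 9 to 11 weeks old, dissected at ZT12 (12 h after lights on). Mice had slept freely (NS), had been kept awake for 12 h (SD), or had been kept awake as long and then allowed recovery sleep (RS). The labels give the recovery as 12 h in 1 place and 24 h in another, and the methods give 24 h. Each library held the dissociated tissue of 3 pooled mice from 1 region and 1 sleep group, after a myelin removal step, so no value has a replicate.

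The proteins of these genes meet in the handling of lipids and amyloid in the brain. Apolipoprotein E (Apoe) and clusterin (Clu, also called apolipoprotein J) are secreted carriers of lipid particles that astrocytes release, and both bind amyloid-beta. Lrp1 is a large endocytic receptor that takes up Apoe particles and also binds the amyloid precursor protein App, from which secretases cut amyloid-beta. Cst3 encodes cystatin C, a secreted inhibitor of cysteine proteases such as the cathepsins, which also binds amyloid-beta.

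In the GRCm38 build used for the counts, GENCODE release M21 places Cst3 at chr2:148871722-148875692, Apoe at chr7:19696109-19699188, Lrp1 at chr10:127538161-127621148 and App at chr16:84949685-85173766, all on the minus strand. Clu lies at chr14:65968483-65981547 on the plus strand. RefSeq (GRCm38.p6) start regions were matched by symbol for 4 of the 5 genes, Apoe, App, Cst3 and Lrp1. The ligand Apoe and its receptor Lrp1 are shown, the pair whose RefSeq and GENCODE starts coincide and whose levels in astrocytes are both described below. Each line gives the 250 bases before the start site, 5′ to 3′ on the minus strand, with any GC box (GGGCGG on either strand, so also CCGCCC) in capitals.
Apoe, chr7:19699189-19699438: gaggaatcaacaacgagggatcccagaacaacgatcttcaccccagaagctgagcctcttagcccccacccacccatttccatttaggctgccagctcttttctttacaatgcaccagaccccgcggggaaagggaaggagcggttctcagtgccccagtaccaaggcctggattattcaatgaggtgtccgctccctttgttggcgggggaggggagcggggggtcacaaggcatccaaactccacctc
Lrp1, chr10:127621149-127621398: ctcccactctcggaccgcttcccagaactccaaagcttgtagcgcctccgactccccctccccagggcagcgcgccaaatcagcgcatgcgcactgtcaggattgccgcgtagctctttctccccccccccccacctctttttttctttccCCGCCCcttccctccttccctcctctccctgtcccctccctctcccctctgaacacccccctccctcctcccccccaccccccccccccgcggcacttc
The Lrp1 window held 1 GC box and 67.2% G and C, while the Apoe window held none and 57.2% G and C. Neither held TATAAA on either strand. RefSeq has further Apoe start sites within the gene, and the window before 1 of them, chr7:19698622-19698871, held 2 TATAAA matches. Over all 32851 windows of this length, 32.7% held a GC box and 12.4% held TATAAA, with a median of 52.4% G and C. These matches describe the sequence only and say nothing of what binds there.

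The libraries held 2575 to 3916 cells and 1522766 to 5488950 UMIs (unique molecular identifiers, which count each captured transcript once), with medians of 402 to 1055 UMIs per cell. They are numbered in the order of the deposited table, a number that says nothing of region or sleep group. Only library 7 could be tied to a sample, brainstem NS, because it held all 1999 listed barcodes of that sample available here, against 5 to 13 in each other library. Sleep groups were therefore not compared. Depth differed in kind too, since libraries 3, 6 and 9 held no cell under 500 UMIs, while 32.6% and 35.9% of the cells of libraries 1 and 2 reached that depth. In all, 549 barcodes occurred in more than 1 library. The doublet caller marked 140 cells, 0.473% of all, a share too low to rely on, and all cells were kept. Levels are UMIs summed over cells in counts per 1000000 UMIs (CPM), with exact Poisson intervals at 95%, and shares of cells have exact Clopper-Pearson intervals at 95%. Both cover counting error only.

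The listed cells of the brainstem NS library fell into 11 types and 1 cell named Unknown, which is left out. Their names were checked against marker lists, where a marker counted when it was at least 2-fold higher than in the other listed cells after 10 CPM was added to both. All 10 astrocyte markers, 7 of 7 microglia markers and 6 of 6 macrophage markers did. The 43 cells listed as Oligodendrocyte did not carry their label's markers, since only Cldn11 of 6 passed, at 727 CPM, and the myelin genes Mag, Mobp and Ermn had no UMI. Their leading genes were Prg4, Dapl1 and Cldn11, and 38 of the 43 fell in a cluster named fibroblast or leptomeningeal-like. They are called the Cldn11 cells here. The 55 cells listed as Neuron Glutamatergic carried neuron markers of more than 1 transmitter, with Slc17a6 and Slc17a7, the vesicular glutamate transporters, at 515 and 153 CPM and the GABA genes Slc32a1, Gad1 and Gad2 at 610.1, 153 and 114 CPM. They are called listed glutamatergic neurons here, as a name from the list only.

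The name given to the set held for part of it. Astrocytes had the highest level of Clu and Lrp1 among the 11 types, but in both genes the next type's interval overlapped theirs. Apoe was highest in macrophages, Cst3 in microglia and App in listed glutamatergic neurons. On the (CPM + 10) scale, 3 of the 5 genes (Apoe, Clu and Lrp1) were at least 2-fold higher in astrocytes than in the other listed cells, against 10.5% of the 8956 genes of at least 10 CPM. App was at least 2-fold lower there, as were 24.2% of genes, and Cst3 was neither. All 5 genes were above 10 CPM.

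**Figure D1:**
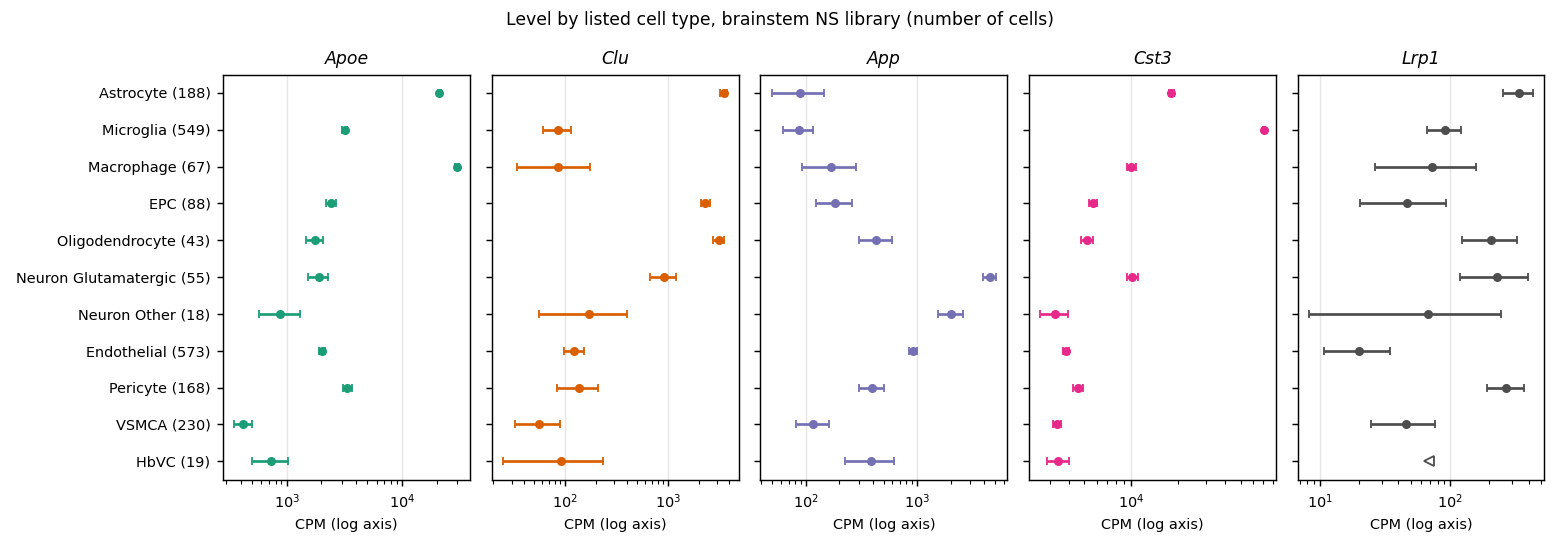
Level of each gene (CPM, log axis) in the listed types of the brainstem NS library, with the number of cells beside each type. Points are sums over cells, bars are exact Poisson 95% intervals, and the open triangle marks what 3 counts would give where no UMI was found; Apoe peaks in macrophages at 29709 CPM, Cst3 in microglia at 70419 CPM and App in listed glutamatergic neurons at 4481 CPM.

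Apoe stood at 29709 CPM (28548 to 30904) in the 67 macrophages and at 20973 CPM (20290.5 to 21673) in the 188 astrocytes. The ratio was 1.42 (1.35 to 1.49), and astrocytes were 6.27-fold (5.70 to 6.90) above the third type, the listed pericytes. Macrophages and astrocytes were the only types in which Apoe was at least 2-fold above the other listed cells, with log2 folds of 3.04 in macrophages and 2.69 in astrocytes. Pericytes and microglia were at 3346 CPM and 3169.9 CPM with overlapping intervals. Their cells were uneven, since 89 of 168 pericytes had no Apoe UMI and 14 had 10 or more, and the median microglial cell had 1 while 26 of 549 had 10 or more. With only cells of at least 1000 UMIs the levels of pericytes and microglia were 6088 and 4853 CPM. The listed pericytes divided by cluster, a split made after seeing the data. The 115 in a pericyte-like cluster were at 571 CPM (419.6 to 759), and the 47 in a fibroblast or leptomeningeal-like cluster were at 7212 CPM (6548 to 7925), so the place of the listed pericytes rested on the latter. The other 6 were in a VSMCA-like cluster, and all 322 pericyte-like cells of the library were at 952 CPM, below its microglia-like cells at 2423 CPM. Below pericytes and microglia lay ependymocytes (EPC) at 2412 CPM and endothelial cells at 2015 CPM, the latter not separated from listed glutamatergic neurons at 1888 CPM. The lowest values belonged to the hemoglobin-expressing vascular cells (HbVC) at 728 CPM and to arterial smooth muscle cells (VSMCA) at 422 CPM. In macrophages 1 of the 5 genes was past 2-fold higher, against 5.58% of all genes.

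The high Apoe of the astrocytes and of the macrophages was spread differently over their cells. In astrocytes 1 of 188 cells lacked an Apoe UMI, and the number per cell ran from 0 through a median of 14.5 to 117. In macrophages 17 of 67 cells lacked one, 9 had 1 to 3, 0 had 4 to 9 and 41 had 10 or more, with a median of 29 and a maximum of 163. The macrophages thus formed a group with little or no Apoe and a group with much of it, with no cell between. Split by Lyz2, a lysozyme gene of myeloid cells, the 48 macrophages with a Lyz2 UMI were at 37301 CPM of Apoe (35842 to 38804), and the 19 without were at 235 CPM (64.1 to 602). The cells without a Lyz2 UMI were shallower, with a median of 703 UMIs against 1278. Macrophages with a UMI of Pf4 or F13a1, genes of border-associated macrophages, stood at 48560 and 55787 CPM, and those without at 14107 and 19095 CPM. The other 6 genes tried were Mrc1, Cd74, H2-Aa, Cx3cr1, Ms4a7 and Cd163, for which cells with a UMI were also the higher, least so for Cx3cr1 (32972 against 28432 CPM) and H2-Aa (32242 against 24998 CPM). These splits were chosen after the values had been seen and carry no test.

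Apoe was found in most cell types at some level. At the full depth of each cell, 99.5% of astrocytes (97.1 to 99.99) had an Apoe UMI, and so did 89.5% of the 19 HbVC, erythroid-marked cells with 1 Apoe UMI in the median cell. Median depths were 771 and 2205 UMIs. With every cell thinned to 500 UMIs the shares were 98.9% of 185 astrocytes, 36.8% of HbVC and 20% of 230 VSMCA (median depth 1319.5 UMIs). No expression is read from shares near those of HbVC and VSMCA, such as the 38.9% of other neurons, 40.9% of pericytes and 38.0% of microglia. The part of free RNA in these shares was not tested, and 3 of the 19 HbVC fell in a cluster named HbVC-like.

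**Figure D2:**
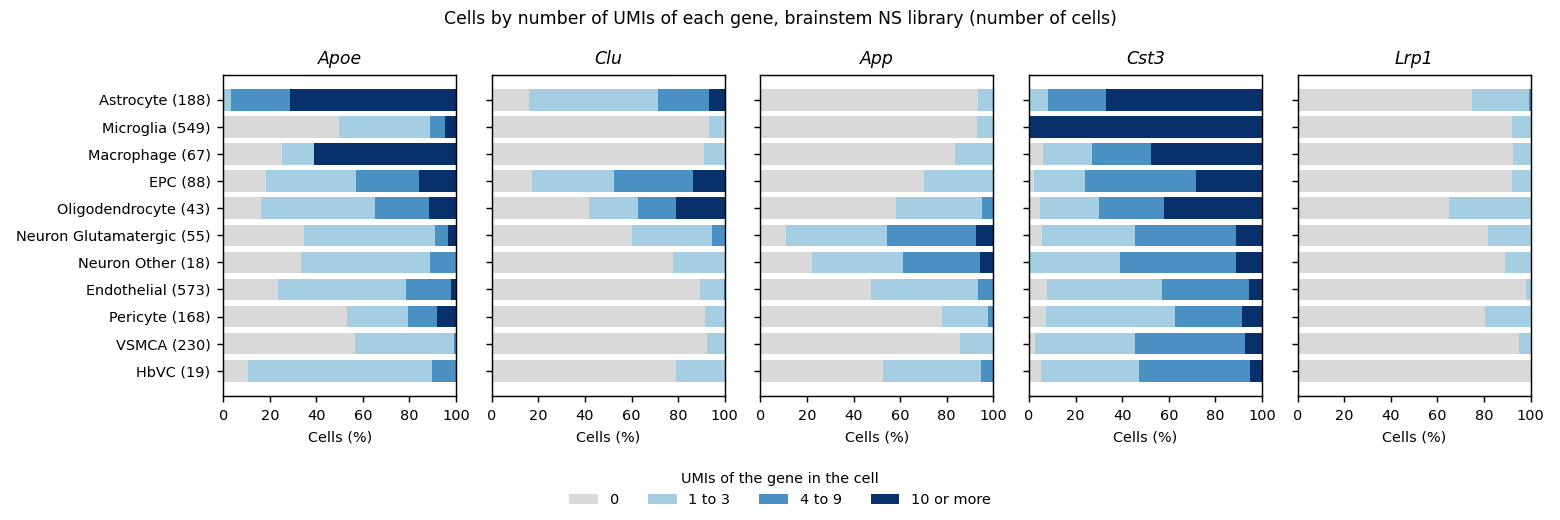
Share of cells (%) with 0, 1 to 3, 4 to 9 and 10 or more UMIs of each gene in each listed type of the brainstem NS library, with the number of cells beside the type. Cells with 10 or more Apoe UMIs make up 71.3% of astrocytes and 61.2% of macrophages, and for Cst3 99.6% of microglia.

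Clu was high in astrocytes and ependymocytes and in the Cldn11 cells, and low in every vascular and myeloid type. Its level was 3518 CPM (3242 to 3812) in astrocytes, 3151 CPM (2788 to 3548) in the Cldn11 cells and 2329.8 CPM (2106 to 2571) in ependymocytes. Astrocytes and Cldn11 cells did not differ beyond counting error, with a ratio of 1.12 (0.966 to 1.29), while Cldn11 cells were 1.35-fold (1.16 to 1.58) above ependymocytes. Listed glutamatergic neurons followed at 915 CPM (675 to 1213). The other 7 types lay between 55.2 CPM in VSMCA and 169.8 CPM in other neurons, each overlapping its neighbour. In ependymocytes, 1 of the 5 genes (Clu, log2 fold 2.12) was past 2-fold higher, against 12.3% of genes.

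Within the types that carried Clu, a few of the Cldn11 cells held the most UMIs of it, though not the highest CPM. Astrocytes held from 0 to 20 Clu UMIs per cell with a median of 2, and ependymocytes from 0 to 20 with a median of 3. The Cldn11 cells ran from 0 to 60 with a median of 1, and 9 of the 43 had 10 or more. All 273 of their Clu UMIs lay in the 38 cells of the fibroblast or leptomeningeal-like cluster. The Cldn11 cells were deeper than the astrocytes, with a median of 1651 UMIs per cell against 771. In CPM the highest single cell was an astrocyte, at 18067 CPM, against 17595 CPM for the highest Cldn11 cell. With cells thinned to 500 UMIs, a Clu UMI was found in 72.4% of astrocytes and 59.1% of ependymocytes, against 2.61% of VSMCA (full shares 84.0%, 83.0% and 7.39%, median depths 771, 1752 and 1319.5 UMIs). In the same thinned astrocytes, 132 of 185 carried both Apoe and Clu, and 181 both Apoe and Cst3.

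Lrp1, the receptor, was scarce in all types, and its order was the least settled of the set. Astrocytes stood at 335 CPM (254 to 434), pericytes at 270.4 CPM (193 to 368), listed glutamatergic neurons at 229 CPM (118 to 399.7) and Cldn11 cells at 208 CPM (123 to 328). Each of these 4 types overlapped the next, and the astrocyte to pericyte ratio was 1.24 (0.813 to 1.91), or 2.39 when cells were named by clusters in place of the authors' types. Microglia lay below the Cldn11 cells by 2.29-fold (1.25 to 4.03), at 90.7 CPM. Endothelial cells were at 20.05 CPM (10.7 to 34.3), below the microglial and astrocyte intervals. The 19 HbVC had 0 Lrp1 UMIs of 43957, where 3 counts would give 68.2 CPM and the interval reaches 83.9 CPM. In the listed pericytes, Lrp1 was the 1 gene of the 5 past 2-fold higher (log2 fold 1.58, against 2.00 in astrocytes), where 6.79% of genes were. Lrp1 was at 207 CPM (120.3 to 331) in those of the pericyte-like cluster and at 384 CPM (243 to 576) in those of the fibroblast or leptomeningeal-like one, with overlapping intervals. Over all 322 pericyte-like cells of the library it was at 139 CPM.

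An astrocyte held at most 4 Lrp1 UMIs, and 25% of astrocytes (19.0 to 31.8) had any. At 500 UMIs per cell the share was 17.8%, against 12.8% of pericytes and 0.351% of endothelial cells, whose median depths were 771, 726 and 910 UMIs. The full shares of pericytes and endothelial cells were 19.6% and 1.92%. The endothelial share was the lowest of the types with a Lrp1 UMI.

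App had its highest levels in neurons, and the values of astrocytes and microglia were the lowest. Listed glutamatergic neurons stood at 4481 CPM (3926 to 5092), 2.24-fold (1.67 to 3.03) above the 18 other neurons at 2003 CPM (1525 to 2584). Endothelial cells followed at 919 CPM (847 to 996), and their interval cleared those on both sides. Cldn11 cells, pericytes and HbVC lay together at 427 CPM, 392 CPM and 387 CPM. Astrocytes were at 88.2 CPM (49.4 to 146) and microglia at 86.7 CPM (63.0 to 116), a ratio of 1.02 (0.526 to 1.86). VSMCA, at 117 CPM (81.8 to 162), overlapped both. The log2 fold against the other listed cells was 3.41 in listed glutamatergic neurons, 1.40 in endothelial cells and -2.49 in astrocytes. In endothelial cells App was the 1 gene of the 5 past 2-fold higher, against 10.3% of genes, and in listed glutamatergic neurons App and Lrp1 were, against 12.7%.

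Only 12 of 188 astrocytes had an App UMI, none of them more than 3. Among the 55 listed glutamatergic neurons 6 lacked one, and the number per cell ran to 38 around a median of 3. At 500 UMIs per cell, 78.2% of listed glutamatergic neurons, 34.9% of endothelial cells and 3.78% of astrocytes had an App UMI (full shares 89.1%, 52.5% and 6.38%, median depths 718, 910 and 771 UMIs). The astrocyte share was close to that of microglia, 3.87%, and both are the lowest of the 11 types. The 31.6% of HbVC rests on 19 cells.

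Cst3 had its peak in microglia and was found in every type. It reached 70419 CPM (69691 to 71153) in the 549 microglia, 3.91-fold (3.77 to 4.06) above astrocytes at 18008 CPM (17376 to 18658). Listed glutamatergic neurons and macrophages followed at 10144 CPM and 9995 CPM with overlapping intervals. In these neurons 6 of 55 cells had 10 or more Cst3 UMIs, up to 154, and the median cell had 4. They also carried microglia markers, 1277 CPM in sum, and Ctss at 1049 CPM, whose part in the Cst3 level was not tested. Ependymocytes stood at 5681 CPM, Cldn11 cells at 5194 CPM and pericytes at 4556 CPM. Endothelial cells, HbVC, VSMCA and other neurons lay from 3810.3 CPM down to 3226 CPM, each overlapping the next. In microglia 1 of the 5 genes (Cst3, log2 fold 3.58) was past 2-fold higher, against 8.71% of genes, and 2 (App at -2.73 and Clu at -3.15) were past 2-fold lower, against 23.8%. In astrocytes the log2 fold of Cst3 against all other listed cells, microglia among them, was -0.20. In VSMCA all 5 genes were past 2-fold lower, where 25.7% of genes were.

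Every microglial cell carried Cst3, from 8 to 244 UMIs with a median of 58. Astrocytes ran from 1 to 123 with a median of 12, so that the highest astrocyte lay within the microglial range. The share of cells with a Cst3 UMI says little, since it was 100% in astrocytes and 97.4% in VSMCA at full depth. At 500 UMIs it was 98.9% and 77.8% (median depths 771 and 1319.5 UMIs). The number of Cst3 UMIs for each Apoe UMI was 0.336 in macrophages, 0.859 in astrocytes, 4.69 in HbVC, 7.90 in VSMCA and 22.2 in microglia.

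Across libraries the summed level of each gene varied widely. Apoe in libraries 1 to 9, in that order, was at 9252, 7732, 5781, 2739, 4724, 1350.2, 4051, 4861 and 5146 CPM. Cst3 was at 14801, 9632, 6696, 2927, 4173, 1394, 18274, 13310.4 and 10042 CPM. Over all cells, Apoe was thus highest in library 1 and Cst3 in library 7, and both were lowest in library 6. Clu was at 2071, 2220.0, 1417, 433, 662, 352, 629.5, 808 and 850.1 CPM, App at 826, 871, 1024, 343, 322, 255, 468, 495 and 468 CPM and Lrp1 at 154, 157, 133, 53.7, 66.4, 25.7, 88.2, 100.2 and 72.4 CPM in the same order. Clu and Lrp1 were highest in library 2 and App in library 3, and libraries 1 to 3 lay above all others for these 3 genes and for Apoe over all cells. On the (CPM + 10) scale the highest library was 3.91-fold (App) to 13.02-fold (Cst3) above the lowest, against a median of 2.19-fold over 9673 genes. All 5 genes were past 2-fold by this measure, as were 58% of genes, so the count says little about them. With only cells of at least 1000 UMIs the order of libraries changed. Apoe was then highest in library 9 at 4493 CPM and lowest in library 2 at 1113 CPM, with libraries 1 and 6 at 1508 and 1216 CPM. Clu was highest in library 9 at 923 CPM and lowest in library 4 at 339.9 CPM, and libraries 1 to 3, at 465, 411 and 650.1 CPM, lay below libraries 7 to 9. App was highest in library 1 at 1377 CPM and lowest in library 5 at 200.2 CPM. For App and Lrp1 libraries 1 to 3 stayed above the others, and Cst3 stayed highest in library 7 and lowest in library 6.

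**Figure D3:**
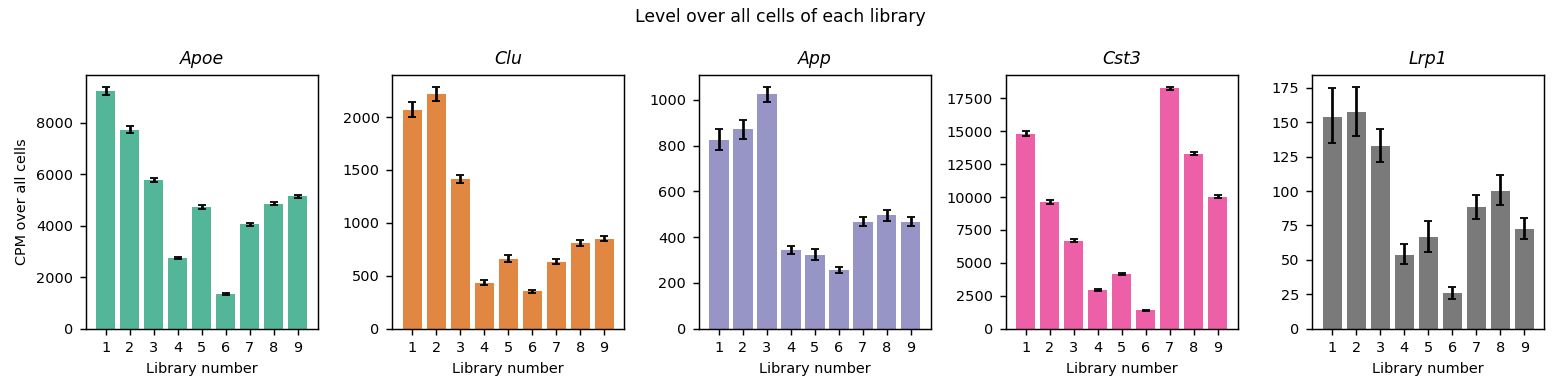
Level of each gene over all cells of each library (CPM, linear axis from 0), in the order of the deposited table. Bars are sums over cells with exact Poisson 95% intervals; libraries 1 to 3 are the highest for Apoe, Clu, App and Lrp1, library 7 for Cst3, and library 6 is the lowest for all 5 genes.

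The libraries differed in makeup at the same time. All cells were clustered with the 5 genes left out, and clusters were named from the marker lists as a class that is "like" a type. Astrocyte-like cells were 41.9%, 41.8% and 34.5% of the cells in libraries 1 to 3 and 0.741% in library 6. Microglia-like cells were 26.5% in library 7 and 0.638% in library 6. Growth hormone (Gh) transcripts took 25.3%, 27.9% and 32.1% of all UMIs in libraries 4 to 6 and at most 0.00755% in the others, and they count in the total behind each CPM there. Of the Apoe UMIs, astrocyte-like cells held 85.1% in library 2 and 7.60% in library 6, where ependymocyte-like cells held 48.9%. Of the Cst3 UMIs, microglia-like cells held 78.8% in library 7, 20.3% in library 3 and 3.17% in library 6. Of the App UMIs, neuron-like cells held 86.8% in library 3 and 24.95% in library 7, where endothelial-like cells held 44.8%. The part of makeup in the differences between libraries was not tested.

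Within classes, the type with the highest Apoe, Clu, App and Cst3 in the brainstem NS library was also the highest in most libraries, while for Lrp1 it was not. Classes of at least 20 cells in a library were used. Apoe was highest in macrophage-like cells, then in astrocyte-like cells, in all 9 libraries, and the intervals overlapped in library 6 alone. In macrophage-like cells of libraries 1 to 9 it was at 45819, 27711, 31509, 47478, 39224, 22081, 32122, 29836 and 29858 CPM, from 20 cells in library 6 to 167 in library 9. In astrocyte-like cells it was at 24689, 22991, 24034, 25017, 27212, 18973, 20325, 21664 and 14846 CPM, from 29 cells in library 6 to 1327 in library 2. Between astrocyte-like cells of different libraries Apoe thus varied by 1.83-fold, against 6.85-fold over all cells. With cells of at least 1000 UMIs the first of these, library 5 over library 9, turned to 0.764, from 7 such cells in library 5 and 177 in library 9. The second, library 1 over library 6, fell to 1.24 with such cells, so the contrast was not kept there.

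Clu was highest in astrocyte-like cells in 8 of the 9 libraries, and in library 6 ependymocyte-like cells, at 2293 CPM, overlapped astrocyte-like cells at 2089 CPM. In astrocyte-like cells of libraries 1 to 9 Clu was at 5936, 6685, 5984, 3657, 3506, 2089, 3451, 3087 and 2267 CPM. Libraries 1 to 3 lay at 5936 CPM or more and the other libraries at 3657 CPM or less, so the higher Clu of libraries 1 to 3 was present within the class too. Different clusters held the class in them: cluster 4, led by Htra1 and Pantr1 at a median of 361 UMIs per cell, held 70.5% of it in library 1, cluster 10, led by the same genes at 605 UMIs, 71.5% in library 3, and cluster 7, led by Agt and Slc6a11 at 703 UMIs, 65.5% to 93.6% in libraries 4 to 9. Clu in cluster 4 ran from 3274 to 6840.1 CPM over 4 libraries with at least 20 of its cells, in cluster 10 from 6936 to 8023 CPM over 3 libraries, and in cluster 7 from 2632 to 3749 CPM over 5. Lrp1 was lower in cluster 10 than in cluster 7, at 133 to 174 CPM in cluster 10 and 231 to 347 CPM in cluster 7. Neither gene was used to form the clusters, and no test was made between them.

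**Figure D4:**
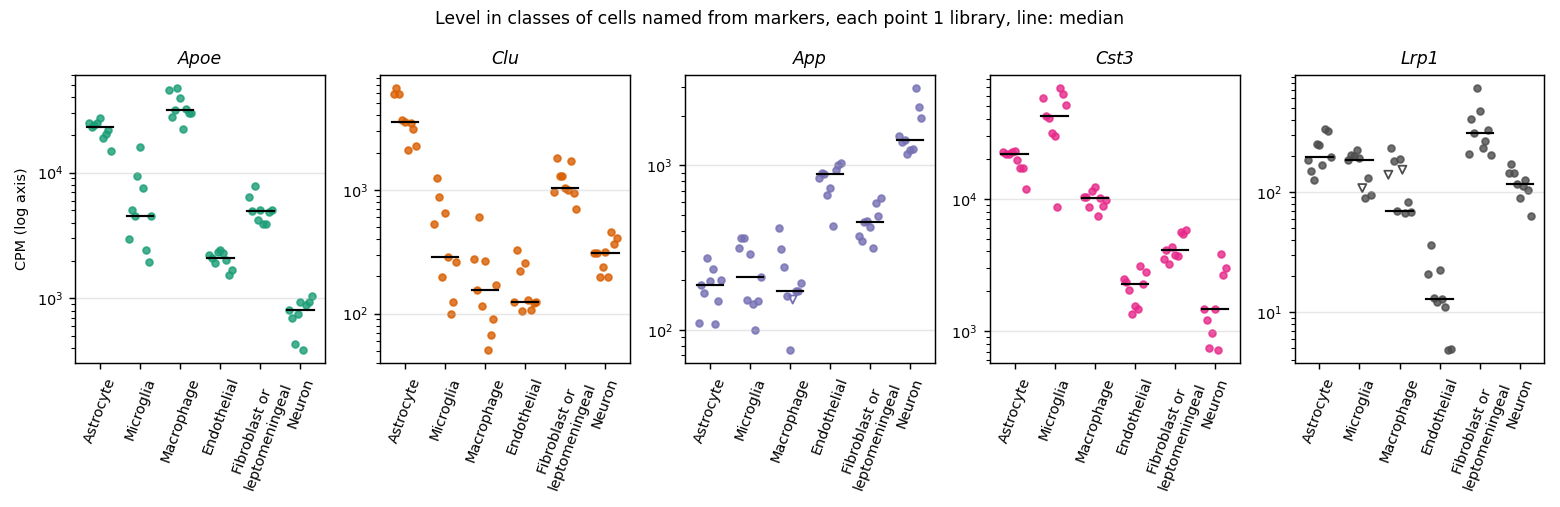
Level of each gene (CPM, log axis) in classes of cells named from markers, with the 5 genes left out of the clustering. Each point is 1 library, the line is the median over libraries, and open triangles mark what 3 counts would give where no UMI was found; Apoe is highest in macrophage-like cells, Clu in astrocyte-like, App in neuron-like and Cst3 in microglia-like cells by median.

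App in astrocyte-like cells was low in each library, from 109 to 274 CPM with a median of 188 CPM. A part of this came from 2 small clusters of the class, 23 and 27, where App ran from 395 to 619 CPM and from 1173 to 1290.3 CPM, against 51.6 to 63.1 CPM in cluster 10. Cluster 27 also carried 6213 CPM of summed neuron markers, against 301 CPM in cluster 10 and 555 CPM in cluster 23. Cluster 23 carried 7765 CPM of summed endothelial markers beside 7787 CPM of astrocyte markers, against 88.0 CPM of endothelial markers in cluster 10. It also carried 3049 CPM of VSMCA markers and 2177 CPM of pericyte markers. The part of these other types in the App level was not tested. Without both clusters, a choice made after seeing the data, App in astrocyte-like cells of library 3 was at 58.3 CPM in place of 167 CPM, and the median over libraries was 99.5 CPM. Neuron-like cells had the highest App in all 9 libraries, at 1500.3, 1375, 1419.9, 1173, 1240.3, 1256, 2953, 2264 and 1946 CPM in libraries 1 to 9, each clear of the next class. Endothelial-like cells were second in 7 of 9 libraries and ran from 428 to 1027 CPM.

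Cst3 was highest in microglia-like cells in 8 of the 9 libraries. In libraries 1 to 9 these cells were at 58231, 42569, 41149, 31617, 29738, 8720.0, 69203, 62047 and 51381 CPM. Library 6 was the exception, with 25 microglia-like cells below the astrocyte-like cells at 19647 CPM. The level varied between microglia-like clusters as well. Cluster 5, led by Ccl4 and P2ry12, ran from 54999 to 72326 CPM over 7 libraries. It had no level in libraries 5 and 6, which held 18 and 1 of its cells. Cluster 11, led by Crybb1 and C1qa, ran from 7513 CPM in library 6 to 62088 CPM in library 8, over 9 libraries. In the 7 shared libraries cluster 5 was the higher. The gap was small in library 8, at 65365 against 62088 CPM, and wide in library 4, at 64242 against 25736 CPM. Cluster 5 held 85.8% of the microglia-like cells of library 7 and 4% of those of library 6, and cluster 11 11.1% and 84%. Cluster 11 also carried 35908 CPM of summed pituitary endocrine markers and 28947 CPM of HbVC markers, against 10682 CPM of microglia markers. In cluster 5 these sums were 176, 3588 and 15339 CPM. The part of these other types in the Cst3 level was not tested. In astrocyte-like cells Cst3 was at 22593, 21649, 21976, 22506, 22780, 19647, 17028, 17043 and 11922 CPM, a narrower range than in microglia-like cells.

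Apoe in microglia-like cells differed between libraries and clusters. It was at 2982, 5009, 4558, 9351, 15874, 7608, 2423, 1964 and 4500.3 CPM in libraries 1 to 9, highest in library 5. Cluster 25 of this class carried 10172 to 16705 CPM of Apoe and 1261 to 4806 CPM of Clu, together with 9837 CPM of summed astrocyte markers against 6338 CPM of microglia markers. Cluster 26 carried 11759 CPM of endothelial markers. Without clusters 25 and 26, a choice made after seeing the data, Apoe in microglia-like cells of library 2 was at 1979 CPM in place of 5009 CPM, and that of library 3 at 1650.1 in place of 4558 CPM. In library 5 it was 16806 CPM in place of 15874 CPM, so leaving out these clusters did not lower it. Of the 74 cells left there, the 56 of cluster 11 were at 11022 CPM. The value of 16806 CPM thus also rested on the 18 cells of cluster 5, too few to be given a level. Cst3 without them ran from 7666 to 70805 CPM.

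Lrp1 had its highest level in fibroblast or leptomeningeal-like cells, which express collagens and decorin, in 8 of the 9 libraries. There it was at 208, 407, 308, 737, 468, 229.8, 267, 329 and 205 CPM in libraries 1 to 9, and in astrocyte-like cells at 183, 149.9, 126, 250.2, 245, 168, 331, 321 and 196 CPM. The interval of the top class cleared the next in library 4 alone. No Lrp1 UMI was found in the 25 microglia-like cells of library 6, with an interval up to 132 CPM, nor in the macrophage-like cells of libraries 1 and 6, with intervals up to 171 and 188 CPM. The 3 counts taken as a floor would give 108, 139 and 153 CPM. Endothelial-like cells held it at 4.86 to 36.6 CPM.

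Among the other 38 genes of lipoprotein and amyloid handling, 36 were above 10 CPM over the listed cells. Listed glutamatergic neurons had the highest level for 13 of them, microglia for 9, and astrocytes and ependymocytes for 4 each, over the 8 types of at least 50 cells. By type, 16 were past 2-fold higher and 14 past 2-fold lower in listed glutamatergic neurons, 11 and 10 in microglia and 9 and 7 in astrocytes. Of all genes tested, 12.7% were higher and 47.2% lower in listed glutamatergic neurons, 8.71% and 23.8% in microglia and 10.5% and 24.2% in astrocytes. Their median log2 fold was -0.21, -0.17 and -0.02 in these types, against -0.83, -0.30 and -0.26 over all genes tested. In ependymocytes 9 were past 2-fold higher and 16 past 2-fold lower, where 1105 and 1995 of the 8956 genes tested were. The median log2 fold there was -0.56, against -0.14 over all genes tested.

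Both relatives of App and its beta-secretase were highest in listed glutamatergic neurons among the types of at least 50 cells. Aplp1 and Aplp2, the relatives of App, were at 610.1 and 1602 CPM in listed glutamatergic neurons and at 94.1 CPM (astrocytes) and 446 CPM (endothelial cells) in the next type. Bace1, the beta-secretase, was at 153 CPM in these neurons from 8 UMIs, against 29.2 CPM in VSMCA. In the 18 other neurons Aplp1 was at 407 CPM and Bace1 at 34 CPM. The gamma-secretase genes named here did not separate the types: Psen2 and Ncstn were highest in listed glutamatergic neurons from 3 and 6 UMIs, and Psenen at 446 CPM in macrophages overlapped microglia at 378 CPM. Adam10, an alpha-secretase, was at 199 CPM in microglia and 168 CPM in endothelial cells with overlapping intervals.

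Among receptors, Trem2, a myeloid receptor that binds lipoproteins, was at 2405 CPM in microglia and 337 CPM in macrophages. Sorl1, a sorting receptor of App, was past 2-fold higher in astrocytes (log2 fold 1.49), ependymocytes (2.03), listed glutamatergic neurons (2.42) and other neurons (1.21). These folds rested on 19, 26, 12 and 3 UMIs in that order. The intervals of ependymocytes and listed glutamatergic neurons overlapped. Of the lipoprotein partners, Apoc1 shared the highest types of Apoe, with log2 folds of 2.62 in macrophages and 2.57 in astrocytes, though from 13 and 22 UMIs. Abca1, which loads lipid onto Apoe, was past 2-fold higher in astrocytes (log2 fold 1.51) and ependymocytes (1.03), with overlapping intervals. Apod was highest in the listed pericytes at 4779 CPM, and Pltp in endothelial cells at 1596 CPM. Apod was also a leading gene of the fibroblast or leptomeningeal-like cluster, where 47 of the 168 listed pericytes fell. Its level was not split by cluster. The cathepsins that cystatin C inhibits were highest in the same type as Cst3, with Ctss at 9689 CPM, Ctsb at 1772 CPM, Ctsh at 858 CPM and Ctsl at 593 CPM in microglia. The intervals of Ctsb and Ctsl overlapped those of macrophages and of listed glutamatergic neurons. Among the BRI genes, whose proteins bind App, Itm2b was at 5009 CPM in microglia and Itm2a at 6398 CPM in endothelial cells, and Itm2a and Pltp are themselves on the endothelial marker list.

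**Figure D5:**
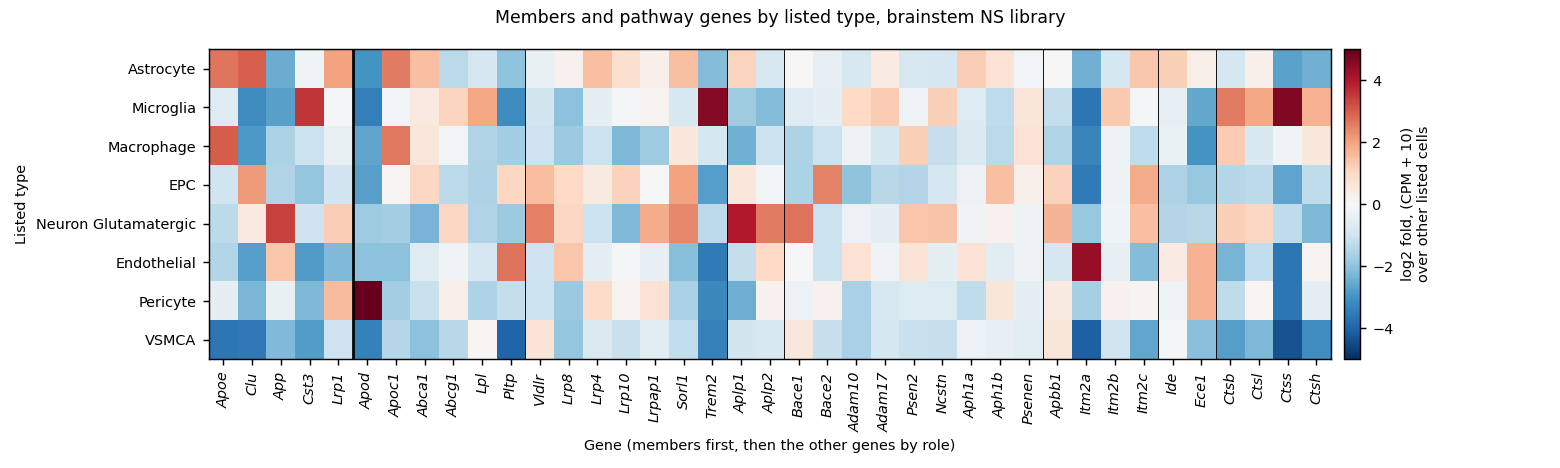
Log2 fold on the (CPM + 10) scale of the 5 genes (left of the thick line) and of pathway genes above 10 CPM, grouped by role, in each listed type of at least 50 cells against all other listed cells. Red is higher and blue lower; App is red in listed glutamatergic neurons (3.41) beside Aplp1 (4.02), and Cst3 in microglia (3.58) beside Ctss (4.63).

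The 5 genes had little in common in their pattern over the 8 types of at least 50 cells. Pearson's r of log2(CPM + 10) between them ran from -0.31 (App and Cst3) to 0.43 (Clu and Lrp1), as a description over types that share 1 library. Among 2834 other genes of at least 50 CPM, those most like Apoe were Tmcc1 (r = 0.96), Glud1 (0.89) and Gm2a (0.87), the first at 181 CPM in macrophages and 176 CPM in astrocytes. Those most like Clu were Fam213a (0.98), Ntrk2 (0.96), a neurotrophin receptor, and Sfxn5 (0.96). App was most like Atp6v1a (0.95), a subunit of the vacuolar proton pump, Aplp2 (0.95) and Aes (0.94). Cst3 was most like Pag1 (0.95), Creg1 (0.94) and Frmd4a (0.94). For Lrp1 the nearest were Gjb6 (0.85), an astrocyte connexin, Nisch (0.80) and Ntm (0.79), all less like it than the nearest genes of the other 4.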

How the data were processed

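The authors mapped reads of 9 10x libraries to GRCm38 with Cell Ranger and deposited 1 table of UMI counts, whole numbers without normalization, for 18634 genes and 29571 cells. The submitters' processing notes list Cell Ranger 2.2.0 and R 3.5.3. Library 7 was tied to brainstem NS through barcodes of the authors' type list, of which 1999 cells were available here, and only its barcodes and type names were used. The other 8 libraries were not assigned, so the regions and sleep groups were not compared and no test was made. The members and gene lists were chosen with earlier results of these data known.

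Counts were summed over cells and given as CPM. A fold adds 10 CPM to both sides and counts as past 2-fold from 2, among genes of at least 10 CPM. For classes across libraries, all cells were clustered without the 5 genes (2000 genes of highest dispersion among those in at least 3 cells, 13 principal components, 20 neighbours, Leiden resolution 1), giving 30 clusters, of which 29 were named from markers. The 2886 cells of the other cluster, led by Gh, stayed unnamed. Names given by clusters and by the authors were the same in 89.7% of listed cells, but in 68.5% of pericytes, 15.8% of HbVC and none of those listed as Oligodendrocyte. Mog, a marker, is not among the gene names. For thinned shares, 500 UMIs were drawn per cell and 5745 shallower cells were left out. Named genes were the 5 genes, the pathway genes by role (2 are counted but not reported by name here), and the 3 genes most like each member; Lyz2, Pf4, F13a1, Gh, Prg4, Dapl1 and Cldn11 and the cluster leaders were picked with their values in view. The alternatives were cells of at least 1000 UMIs, no called doublets, totals without mitochondrial, hemoglobin and hormone genes, means over cells, the lowest type subtracted, cluster names for types, Leiden resolution 0.5, pseudocounts of 1 CPM, other filters and, added after seeing the data, classes without mixed clusters. The fold count and the likeness measure were checked on simulated data. The software was scanpy 1.11.5 (with Scrublet), leidenalg 0.10.2, scikit-learn 1.9.0, scipy 1.17.1, matplotlib 3.10.9, pandas 2.3.3 and numpy 2.4.6 under Python 3.11.15.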

Additional observations from a re-analysis of the deposited data

How the results depend on the processing

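With 1 pooled library for each region and sleep group, a value's spread over mice is unknown and intervals cover counting error alone. Lrp1 and App in astrocytes rest on 57 and 15 UMIs, and macrophages, other neurons and HbVC on few cells. Types were known for 1 library, and class names elsewhere were rebuilt from markers. No paired analysis was possible because the groups share fewer than 2 replicate numbers and no result comes from a test. Of 66 repeats of the main ratios and counts, 40 stayed within the counting error, or within 1.5 times for counts of genes, 24 moved beyond it in the same direction and 2 reversed; the cause was not tested.

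The reversed ratios were Apoe in astrocyte-like cells of library 5 over library 9, 1.83 as reported and 0.764 with cells of at least 1000 UMIs (7 such cells in library 5 and 177 in library 9), and Clu in astrocytes over Cldn11 cells, 1.12 as reported and 0.967 with totals that leave out mitochondrial and hemoglobin genes. With cells of at least 1000 UMIs, library 1 over library 6 became 1.24 for Apoe, library 2 over library 6 1.13 for Clu, library 3 over library 6 5.28 for App and library 7 over library 6 12.6 for Cst3; these libraries were then no longer the extremes for Apoe, Clu and App. In the same cells, App in listed glutamatergic over other neurons became 1.63, and Cst3 in astrocyte-like cells of library 5 over library 9 1.33. With means over cells, the ratio of the same libraries was 8.85 for Apoe, 10.5 for Clu and 2.93 for App. With totals that leave out mitochondrial, hemoglobin and hormone genes it was 4.48 for Apoe, 4.12 for Clu, 2.60 for App, 9.26 for Cst3 and, for library 2 over library 6, 4.00 for Lrp1. Leaving out mitochondrial and hemoglobin genes gave 1.29 for Apoe in macrophages over astrocytes and 3.56 for Cst3 in microglia over astrocytes, which was 4.55 with the lowest type subtracted. With cluster names for types, Apoe in macrophages over astrocytes was 1.58, Cst3 in microglia over astrocytes 4.06 and Lrp1 in astrocytes over pericytes 2.39; this could not be run for App, whose types are both neurons, or for Clu, since no cluster was named oligodendrocyte-like. Genes past 2-fold higher in astrocytes numbered 942, 196 from genes of at least 50 CPM and 1499 without a filter. Without clusters 23 and 27, chosen after seeing the data, the ratio of library 5 to library 9 in astrocyte-like cells was 1.74 for Apoe and 1.82 for Cst3. Among genes of at least 200 CPM, which are fewer, none of the 3 genes most like Apoe, Clu, Cst3 and Lrp1 stayed among the leading 3, and 1 of those most like App did. A gene under 200 CPM over the listed cells is left out by this filter and cannot stay. The repeat therefore cannot tell whether the likeness is stable.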

Other observations

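Several classes that reached 20 cells in only some libraries also carried these genes. Cells like tanycytes or pituicytes, the radial glia of the third ventricle and the glia of the posterior pituitary, held Apoe at 3668 to 8793 CPM and Cst3 at 2572 to 9462 CPM over 4 libraries, below astrocyte-like cells for both genes, while their Clu was at 427 to 643 CPM. Ependymocyte-like cells carried Apoe at 2385 to 10594 CPM and Clu at 1771 to 2683 CPM over 6 libraries, so that Clu spanned a narrower range between libraries than Apoe. Cells like the pituitary stem or folliculostellate class held App at 626 to 835 CPM over 3 libraries, above pituitary endocrine-like cells at 116 to 215 CPM.

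Cells like the choroid plexus epithelium, which makes cerebrospinal fluid, reached 20 cells in 1 library. At a median of 4671 UMIs per cell, App was at 661 CPM and found in 84.0% of cells, and Clu at 853 CPM in 86.4%. At 500 UMIs per cell these shares were 27.2% and 34.6%. Endothelial-like cells of all libraries, which carry little Clu, at median depths of 366 to 935 UMIs, had a median thinned share of Clu of 6.83%.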
